A study of Mus musculus with 4 samples.

Results

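The interferon-stimulated antiviral genes of effector CD4 cells were followed in experimental autoimmune encephalomyelitis (EAE), a mouse model of multiple sclerosis in which immunization against a myelin antigen brings CD4 cells into the central nervous system. The set was a list of 43 gene symbols, taken by name but with earlier results of these data known. All 43 were among the 23990 symbols of the deposited tables. Effector CD4 cells (CD44+CD4) had been sorted at disease onset from the spinal cord (CNS, 2 libraries) and from pooled draining lymph nodes (dLN, 2 libraries). All 4 libraries came from wild type C57BL/6 mice (C57BL/6J in the Methods of the study) that had been immunized with a MOG peptide in complete Freund's adjuvant and given pertussis toxin, so both tissues shared genotype, strain and immunization, and no untreated mice were in the comparison. The ages of the mice and the number of animals behind a library were not given. The Methods of the study have the sorted cells stimulated with PMA and ionomycin, whereas the sample labels describe RNA taken from fresh cells after the sort and name no stimulation. Whether the cells of both tissues were stimulated alike is therefore not known. Values are FPKM, which count a transcript's fragments relative to its length and to the library's total, summed over the transcripts of a gene.

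Type I interferons (the IFN-alpha family and IFN-beta) bind a receptor made of Ifnar1 and Ifnar2, and the kinases Jak1 and Tyk2 then phosphorylate STAT factors, Stat2 among them. With Irf9 these form a complex that binds the interferon-stimulated response element (ISRE) in promoters of antiviral genes. The products of those genes bind or degrade viral RNA, block entry and budding, starve viral polymerases of nucleotides, sense foreign nucleic acid and feed back on the pathway. Interferon-gamma acts through a separate receptor on the GAS element, and induces many of the same genes. Since these were bulk libraries, fewer cells expressing a gene and less RNA per expressing cell cannot be told apart in any value given here.

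The 4 libraries held an estimated 18.6 M to 22.1 M fragments, read from the steps between low FPKM values, of which 81.5% to 86.2% lay on whole fragments. The estimate was chosen to bring these values closest to whole fragments, so the 10% that chance gives holds only for a depth fixed beforehand. All 10 CD4 T cell markers had a mean of at least 1 FPKM in both tissues, with summed levels of 4099 and 4101 FPKM in CNS, against 1719 and 1568 FPKM in dLN. Markers of other cells were unequal between the CNS libraries. The 14 microglia and macrophage markers held by the tables summed to 26.7 FPKM in CNS replicate 1 and 200.2 FPKM in CNS replicate 2, against 4.69 and 4.05 FPKM in dLN, where 7 of the 14 were at 0. The 4 neutrophil markers summed to 0.767 and 202 FPKM in CNS, against 0.0229 and 0 FPKM in dLN. Plasmacytoid dendritic cell markers summed to 2.38 and 13.6 FPKM in CNS, against 0.0391 and 0.117 FPKM in dLN. NK cell markers (2.63 and 5.42 against 0.0865 and 0 FPKM), B cell markers (1.22 and 1.76 against 0.432 and 0.258 FPKM) and CD8 T cell markers (3.79 and 5.40 against 3.42 and 3.40 FPKM) were low in all 4 libraries. Of the endothelial markers, Pecam1 was read in both tissues (18.7 and 20.1 against 12.02 and 9.66 FPKM), while Cldn5 (1.36 and 3.32 FPKM) and Cdh5 (0.599 and 1.96 FPKM) were read in CNS and were at 0 or at most 0.0142 FPKM in dLN. Of the neural markers, Mbp was at 48.6 and 44.5 FPKM in CNS against 55.5 and 57.7 FPKM in dLN. Gfap was at 0.655 and 2.51 FPKM in CNS and at 0 in dLN, and the other 6 neural markers reached at most 1.80 FPKM in CNS and 0.299 FPKM in dLN. Markers of other cells thus stood mostly higher in CNS, and their part in the differences was not tested beyond the values given here. Sex-linked transcripts split by tissue (Ddx3y 12.7 and 11.2 FPKM in CNS and 0 in both dLN libraries, Xist at most 0.0026 FPKM in CNS, against 26.6 and 22.3 FPKM in dLN). By these transcripts the CNS cells came from male mice and the dLN cells from female mice, so the tissues did not share animals. Of 8 genes known to be induced by PMA and ionomycin, 7 passed the test as lower in CNS (median log2 ratio -4.07), among them Il2 at 18.2 and 38.8 FPKM against 5363 and 6176 FPKM in dLN, and of 6 genes of resting T cells 4 were higher. Tissue, sex-linked transcripts and the activation genes followed the same split of the libraries, so their parts in a difference cannot be told apart.

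Promoter sequence was read as a description of these genes. The list was one of interferon-stimulated genes, and the ISRE is the element through which interferon acts on such genes. A share of ISRE matches above that of all genes therefore follows largely from the choice of the list and is not independent support. RefSeq windows from 250 bases before to 50 bases after the annotated start (build GRCm38.p6) were held for 32 of the 43 genes. The windows were searched on both strands for the ISRE core, here taken as 2 copies of GAAA with any 2 bases between them. At least 1 match stood in 16 of the 32 genes (50%), against 3.99% of 27025 genes. Counting only bases before the start, the match was in 12 of the 32 (37.5%), against 3.46% of all genes. The GAS element, taken as TTC and GAA with any 3 bases between them, was in 8 of the 32 (25%), against 9.55% of all genes. The 2 motifs can overlap, and a match describes the letters only. The sequences that follow, from the 5′ to the 3′ end of the gene's strand, are those of genes that are described by their levels afterwards. Capitals mark the ISRE core, read as GAAA or, on the other strand, as TTTC.
Isg15, chr4:156200865-156200906, minus strand: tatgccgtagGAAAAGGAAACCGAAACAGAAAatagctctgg
Ifit1, chr19:34640775-34640823, plus strand: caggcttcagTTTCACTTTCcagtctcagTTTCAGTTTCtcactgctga
Ifit3, chr19:34583363-34583426, plus strand: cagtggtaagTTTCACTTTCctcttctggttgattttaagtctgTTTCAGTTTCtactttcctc
Rsad2, chr12:26456553-26456582, minus strand: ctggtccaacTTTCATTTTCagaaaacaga
Oas1a, chr5:120907526-120907555, minus strand: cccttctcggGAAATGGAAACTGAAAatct
Oas1g, chr5:120887614-120887641, minus strand: cccttctcggGAAATGGAAACTGAAAat
Ifitm2, chr7:140955988-140956017, minus strand: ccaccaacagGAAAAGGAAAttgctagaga
Bst2, chr8:71537577-71537612, minus strand: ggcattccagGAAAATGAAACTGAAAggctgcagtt
Isg15 held 3 overlapping matches and Ifit1, Ifit3, Oas1a, Oas1g and Bst2 held 2 each. The capital letters of Oas1a and Oas1g read the same, and Ifit1 and Ifit3 carried the same pair of matches. The other 16 windows held no match, among them those of Ifitm1, Sp100, Xaf1 and Cmpk2, which were higher in CNS, and that of Trim25, which was lower. The last 80 bases before the start of Trim25 are shown as an example of a window without a match.
Trim25, chr11:88999323-88999402, plus strand: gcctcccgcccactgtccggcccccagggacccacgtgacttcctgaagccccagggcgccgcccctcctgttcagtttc
In Ifih1, the other gene lower in CNS, a match lay 33 to 42 bases after the start, and in Ddx58, a sensor that was higher in CNS, 3 to 12 bases after it.

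**Figure D1:**
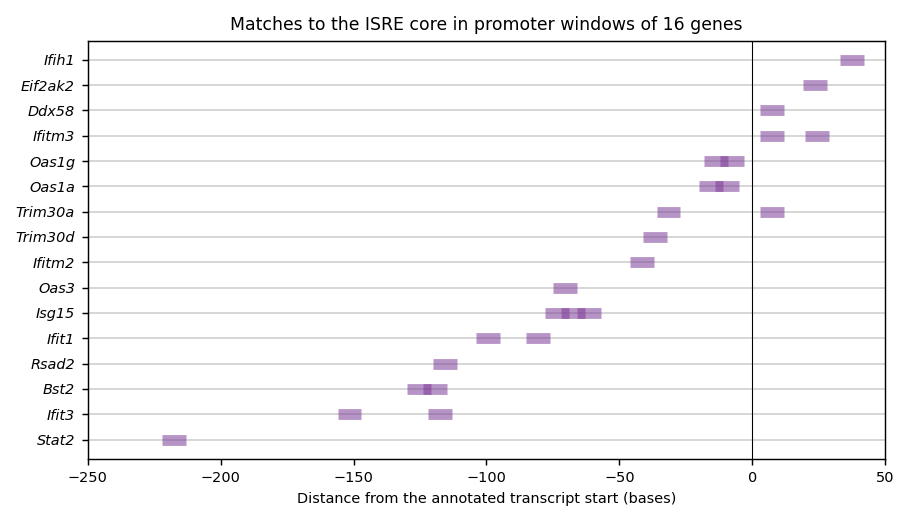
Positions of ISRE core matches (bars, drawn to scale) in the promoter windows of 16 genes, in bases from the annotated transcript start at 0; darker stretches are overlapping matches. Matches lie within 130 bases before the start in most of these genes, farther upstream in Ifit3 and Stat2, and only after the start in Ifih1, Eif2ak2, Ddx58 and Ifitm3.

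Most of the antiviral genes stood higher in the CNS cells. Their FPKM summed to 3032 and 3243 in the CNS libraries and to 509 and 442 in the dLN libraries. Of the 43 genes, 42 reached a mean of 1 FPKM in at least one tissue and were tested with limma on log2(FPKM + 1) in a fit across 10634 genes. After Benjamini-Hochberg adjustment at 0.05, 40 were higher and 2 were lower in CNS (adjusted p between 8.12e-05 and 0.0154 in limma). Over all tested genes 74.9% passed, 37.8% higher and 37.2% lower. A call as higher with a log2 ratio (CNS over dLN) of at least 1 was found in 38 of the 42, against 21.0% of all tested genes. Both CNS libraries lay above both dLN libraries for the same 40 genes, against 45.7% of all tested genes, and the tissues did not overlap for any of the 42, against 89.4%. The median log2 ratio was 2.97, beside 0.05 over all tested genes. A gene that reached 1 FPKM in CNS alone had to be higher there, and this was so for 18 of the 42. The other 24, with at least 1 FPKM in both tissues, split into 22 higher and 2 lower with a median of 2.61, beside -0.04 over all genes of that kind. All these log2 ratios are of FPKM + 1, so the change of a gene with few FPKM is understated. With 2 libraries in each tissue the smallest two-sided p of an exact permutation test is 0.333, and nothing states that the libraries of a tissue came from separate animals, so the limma p-values measure the spread between these libraries alone.

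**Figure D2:**
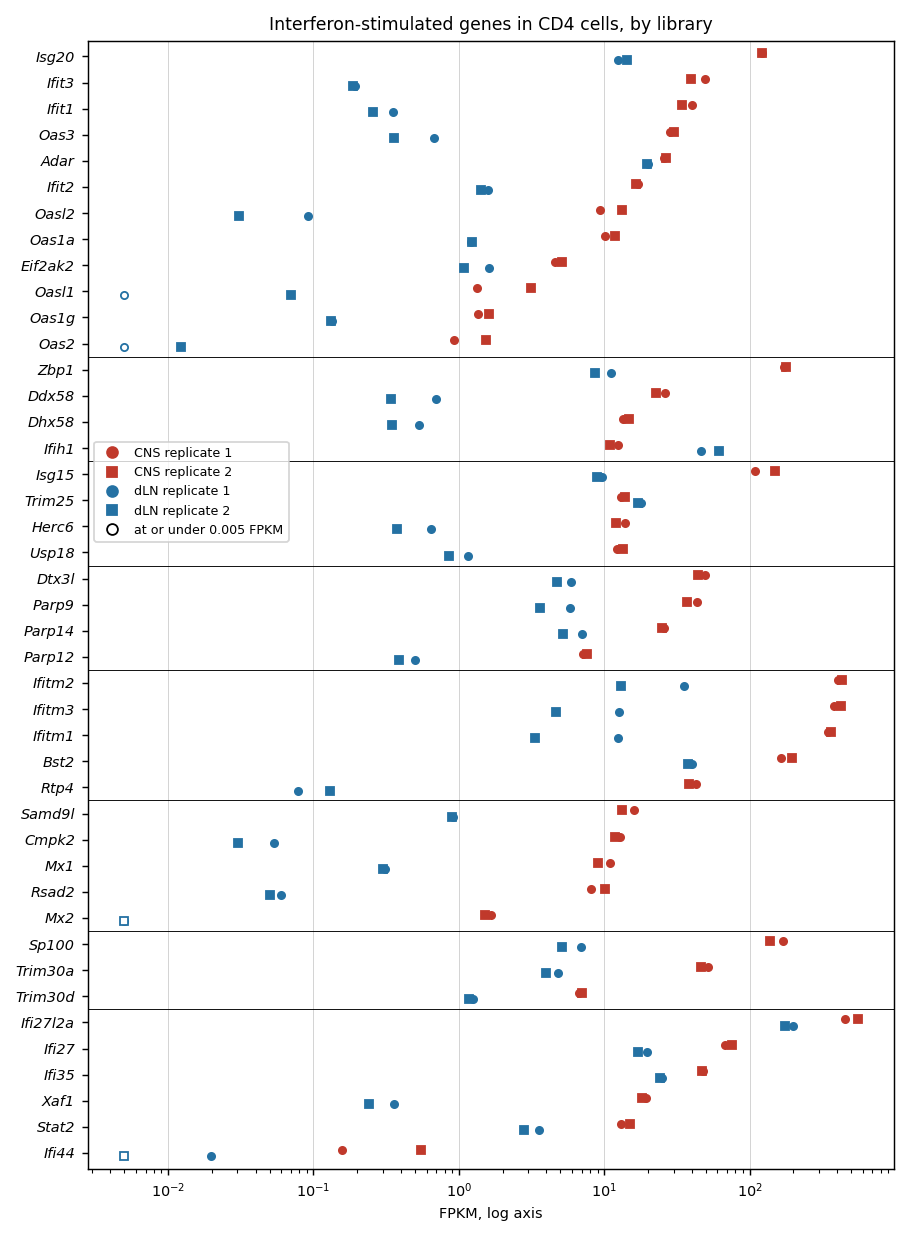
FPKM (log axis) of the 43 genes in each of the 4 libraries, grouped by role; circles are replicate 1 and squares replicate 2, red CNS and blue dLN, and open symbols are values at or under 0.005 FPKM. Red lies to the right of blue in every row except Ifih1 and Trim25, where blue lies to the right.

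In CNS the set reached high levels. A mean of at least 10 FPKM was found for 33 genes and of at least 100 FPKM for 9, while in dLN these counts were 9 and 1, and 18 of the tested genes were under 1 FPKM there. The median level of the tested antiviral genes was 21.6 FPKM in CNS and 1.29 FPKM in dLN, beside 10.02 and 9.997 FPKM over all tested genes. Ifi44, an interferon-induced gene of microtubular aggregates, was under 1 FPKM in both tissues (0.156 and 0.546 FPKM in CNS, against 0.0198 and 0 FPKM in dLN) and was not tested. Its 41 estimated fragments in CNS against 1 in dLN gave a ratio of 38.9 per length and depth, with an exact 95% interval of 6.60 to 1574 that covers counting error only.

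The CNS replicates were compared by the median of signed log2 differences, in which rises and falls cancel. The log2 difference of CNS replicate 2 over replicate 1 had a median of 0.06 over the tested antiviral genes, with 23 higher and 19 lower in replicate 2, beside 0.02 over all tested genes. It was 1.57 over the microglia and macrophage markers. With CNS replicate 2 left out, the median log2 ratio of the tested antiviral genes was 3.05. CNS replicate 1 also held microglia and macrophage markers, at a sum of 26.7 FPKM against 4.69 and 4.05 FPKM in dLN. The part of other cells in the levels of the antiviral genes was not tested. In dLN, 6 of the 42 tested antiviral genes were higher in replicate 2 and 35 were lower (median -0.10). Over all tested genes 37.3% were higher in dLN replicate 2 (median -0.05).

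**Figure D3:**
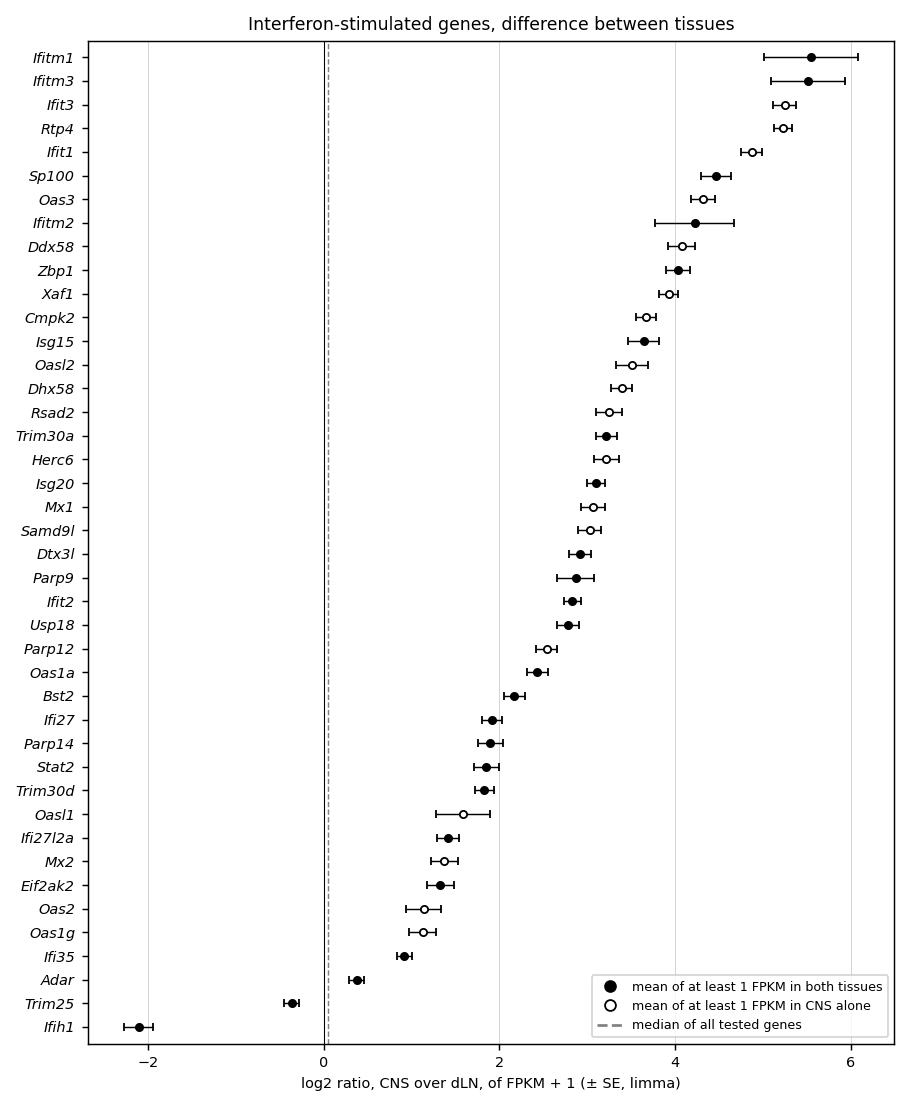
Log2 ratio, CNS over dLN, of FPKM + 1 for the 42 tested genes, with bars of 1 standard error from limma; filled points had a mean of at least 1 FPKM in both tissues, open points in CNS alone, and the dashed line is the median of all tested genes. The points run from -2.11 for Ifih1 to 5.55 for Ifitm1, and the 3 Ifitm genes have the widest bars among those above 4.

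Of the role groups, the one named membrane and entry had the highest median log2 ratio, 5.23 over 5 genes. It held the Ifitm genes, Bst2 and Rtp4, and the median was the value of Rtp4. The Ifitm proteins are small membrane proteins that hinder fusion of viruses with the host cell, and their genes lay together on chromosome 7 between 140954839 and 141010744 (mm10). Ifitm1 was at 349 and 364 FPKM in CNS and at 12.4 and 3.34 FPKM in dLN, with a log2 ratio of 5.55 ± 0.53 (SE). Ifitm2 was at 407 and 434 FPKM in CNS and at 35.1 and 13.1 FPKM in dLN (4.22 ± 0.45), and since 48.5% of its 50-base stretches also occur in other genes, most of them in Gm45717, its reads may include those of near copies. Ifitm3 was at 379.9 and 425 FPKM in CNS and at 12.7 and 4.69 FPKM in dLN (5.51 ± 0.42). The CNS libraries lay close together for all 3 genes, whereas dLN replicate 1 lay well above replicate 2, by up to 1.63 on the log2 scale, and the tissues did not overlap. Without dLN replicate 1 the log2 ratios were 6.36 for Ifitm1, 4.90 for Ifitm2 and 6.15 for Ifitm3, and without dLN replicate 2 they were 4.74, 3.54 and 4.88. Among the Ifitm relatives, Ifitm6 was read at 0.244 and 4.52 FPKM in CNS and 0 in both dLN libraries (log2 ratio 1.39 ± 0.71, adjusted p = 0.133 in limma). Bst2 (tetherin) holds budding virions at the cell surface, and was at 163 and 196 FPKM in CNS and at 40.03 and 37.9 FPKM in dLN (2.17 ± 0.11). Rtp4, a receptor transporter protein that binds viral RNA, was at 42.8 and 38.3 FPKM in CNS and at 0.0779 and 0.130 FPKM in dLN (5.23 ± 0.11). The dLN values of Rtp4 rested on 6 fragments against 2417 in CNS, a ratio of 380.4 per length and depth (exact 95% interval 175 to 1038, counting error only).

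The genes whose products act on viral RNA were all higher in CNS, over a wide range of size. The Ifit proteins bind the 5′ ends of foreign RNA and block its translation, and Ifit1, Ifit2 and Ifit3 lay side by side on chromosome 19 between 34550694 and 34650009. Ifit1 was at 40.3 and 34.4 FPKM in CNS and at 0.352 and 0.258 FPKM in dLN (log2 ratio 4.87 ± 0.12). Ifit3 was at 49.1 and 39.9 FPKM in CNS and at 0.194 and 0.188 FPKM in dLN (5.25 ± 0.13). Both were near 0 in dLN, with 30 and 14 fragments over the 2 libraries. Ifit2, in contrast, was read in dLN at 1.59 and 1.43 FPKM, beside 17.1 and 16.6 FPKM in CNS (2.83 ± 0.10). Of the 50-base stretches of Ifit3, 51.2% also occur in Ifit3b, a near copy that was not used here, so reads of these genes may have been counted together.

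The Oas enzymes make 2′-5′ oligoadenylates, a signal for RNA decay, and 4 of them lay on chromosome 5 between 120730333 and 120907525. Oas3, the longest of them, was at 28.2 and 30.1 FPKM in CNS and at 0.678 and 0.3595 FPKM in dLN (4.32 ± 0.14). Oas1a was at 10.2 and 11.9 FPKM in CNS and at 1.22 and 1.24 FPKM in dLN (2.43 ± 0.12). Oas1a and Oas1g share sequence, with 57.6% and 45.7% of their 50-base stretches in other genes, and the split between them is uncertain. Oas1g was the lower of the pair, at 1.35 and 1.60 FPKM in CNS, against 0.133 and 0.132 FPKM in dLN (1.13 ± 0.15). Oas2 was low in CNS as well, at 0.927 and 1.54 FPKM, and was read from a single fragment in dLN (1.14 ± 0.20). The Oas-like proteins do not all make oligoadenylates, and Oasl1 also restrains translation of Irf7. Oasl2 was at 9.36 and 13.2 FPKM in CNS and at 0.0914 and 0.0307 FPKM in dLN (3.51 ± 0.18), and Oasl1 at 1.33 and 3.15 FPKM in CNS, against 0 and 0.0700 FPKM in dLN (1.59 ± 0.31). The replicates of Oasl1 in CNS differed more than those of any other tested antiviral gene, by 0.83 on the log2 scale, and its log2 ratio was 2.005 without CNS replicate 1 and 1.17 without CNS replicate 2.

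Eif2ak2 and Adar, which act on double-stranded RNA, showed smaller differences. Eif2ak2 (PKR) halts translation by phosphorylating eIF2-alpha, and was at 4.61 and 5.16 FPKM in CNS and at 1.62 and 1.09 FPKM in dLN (1.33 ± 0.16). Adar edits adenosine to inosine in double-stranded RNA, and was at 25.6 and 26.7 FPKM in CNS and at 20.04 and 19.86 FPKM in dLN (0.37 ± 0.08, adjusted p = 0.0108 in limma). That was the smallest difference among the 40 higher genes, and it did not pass the test when every library was given the same sum of FPKM (0.18, adjusted p = 0.102), with the highest transcript alone (0.29, adjusted p = 0.135), or without dLN replicate 1 (adjusted p = 0.0574) or dLN replicate 2 (adjusted p = 0.0644). Adar shares 1365 bases of exon with Chrnb2 on the opposite strand, so without strand their reads there cannot be told apart. Isg20, an exonuclease of single-stranded RNA, was at 122 and 122 FPKM in CNS and at 12.4 and 14.3 FPKM in dLN (3.10 ± 0.10).

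Sensors of viral nucleic acid did not all move the same way. Ddx58 (RIG-I) recognises RNA with 5′ triphosphates, Ifih1 (MDA5) recognises long double-stranded RNA, and Dhx58 (LGP2) tunes both. Ddx58 was at 26.2 and 22.7 FPKM in CNS and at 0.691 and 0.343 FPKM in dLN (4.07 ± 0.16). Dhx58 was at 13.4 and 14.8 FPKM in CNS and at 0.533 and 0.346 FPKM in dLN (3.39 ± 0.12). Ifih1 went the opposite way, at 12.4 and 10.9 FPKM in CNS, against 46.3 and 61.8 FPKM in dLN, 4.63-fold higher in dLN by the means (log2 ratio -2.11 ± 0.16, adjusted p = 0.000341 in limma). Every dLN library exceeded every CNS library, and leaving out each library in turn kept the ratio between -2.31 and -1.90. In CNS the means of Ddx58, Dhx58 and Ifih1 were 24.4, 14.1 and 11.7 FPKM, whereas in dLN Ifih1 stood at 54.0 FPKM beside 0.517 and 0.439 FPKM for the other two. Zbp1, a sensor of Z-form nucleic acid that can start cell death, was at 173 and 179 FPKM in CNS and at 11.2 and 8.63 FPKM in dLN (4.03 ± 0.14).

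Of the ISG15 system, 3 genes were higher and 1 was lower. Isg15 is a ubiquitin-like protein that is attached to other proteins, and was at 108 and 151 FPKM in CNS and at 9.69 and 8.95 FPKM in dLN (3.64 ± 0.17). Herc6, the mouse ligase for this attachment, was at 13.9 and 12.1 FPKM in CNS and at 0.646 and 0.373 FPKM in dLN (3.22 ± 0.14). Usp18, which removes ISG15 and also damps signalling at Ifnar2, was at 12.2 and 13.4 FPKM in CNS and at 1.16 and 0.856 FPKM in dLN (2.78 ± 0.13). All 4 libraries kept the tissues apart for these genes, with dLN near 1 FPKM for Usp18 and under it for Herc6. Trim25, a ubiquitin ligase known as a partner of RIG-I, was at 13.1 and 13.8 FPKM in CNS and at 18.0 and 17.2 FPKM in dLN (-0.36 ± 0.09, adjusted p = 0.0154 in limma). This call was lost when every library was given the same upper quartile (-0.24, adjusted p = 0.0537) and without CNS replicate 1 (adjusted p = 0.0637), dLN replicate 1 (adjusted p = 0.0883) or dLN replicate 2 (adjusted p = 0.0611).

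The GTPases and metabolic enzymes were all under 1 FPKM in dLN. C57BL/6 mice are known to carry defective alleles of Mx1 and Mx2, whose products in other strains trap viral nucleocapsids. Mx1 was at 10.9 and 9.05 FPKM in CNS and at 0.311 and 0.302 FPKM in dLN (3.07 ± 0.13). Mx2 was at 1.67 and 1.51 FPKM in CNS and 0 in both dLN libraries, which was at least 48.2-fold higher against a floor of 3 fragments summed over dLN. Rsad2 (viperin) and Cmpk2 lay next to each other on chromosome 12 between 26442743 and 26479837, and together they make a nucleotide analogue that ends viral RNA chains. Rsad2 was at 8.05 and 10.1 FPKM in CNS and at 0.0599 and 0.0503 FPKM in dLN (3.25 ± 0.15). Cmpk2 was at 12.8 and 11.8 FPKM in CNS and at 0.0539 and 0.0301 FPKM in dLN (3.67 ± 0.11). In fragments, the pair had 1402 and 1581 in CNS and 8 and 5 in dLN, ratios of 167 (exact 95% interval 84.3 to 386) and 300.2 (128 to 926) per length and depth. Samd9l, a restriction factor of poxviruses that also limits cell growth, was at 16.1 and 13.2 FPKM in CNS and at 0.912 and 0.898 FPKM in dLN (3.03 ± 0.13).

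The PARP enzymes, which attach ADP-ribose, and their partner Dtx3l were higher in CNS. Parp9 and Dtx3l work as a complex, lay head to head on chromosome 16, and share 458 bases of exon on opposite strands, so that without strand their reads there cannot be told apart. Parp9 was at 43.3 and 37.0 FPKM in CNS and at 5.80 and 3.63 FPKM in dLN (2.87 ± 0.21). Dtx3l was at 49.1 and 44.1 FPKM in CNS and at 5.90 and 4.72 FPKM in dLN (2.92 ± 0.13). The pair was thus alike in level in each tissue and in ratio. Parp14, a macrodomain enzyme encoded next to them, was at 25.9 and 25.0 FPKM in CNS and at 7.06 and 5.25 FPKM in dLN (1.90 ± 0.15). Parp12, which inhibits translation, was at 7.18 and 7.56 FPKM in CNS and at 0.496 and 0.387 FPKM in dLN (2.54 ± 0.12).

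Sp100, a component of nuclear bodies that silences incoming viral DNA, was among the most abundant of the set in CNS, at 171 and 137 FPKM, beside 6.89 and 5.15 FPKM in dLN (4.47 ± 0.17). Trim30a, which restrains Toll-like receptor signalling, was at 51.8 and 46.4 FPKM in CNS and at 4.81 and 3.98 FPKM in dLN (3.22 ± 0.12). Its neighbour Trim30d was lower in CNS than Trim30a, at 6.69 and 7.03 FPKM, and at 1.25 and 1.18 FPKM in dLN (1.83 ± 0.11).

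The last group held a signal transducer, mitochondrial proteins and other genes of the interferon response. Stat2, which is specific to type I and type III interferon signalling, was at 13.0 and 15.1 FPKM in CNS and at 3.54 and 2.80 FPKM in dLN (1.85 ± 0.14). Xaf1, which counters an inhibitor of apoptosis, was at 19.4 and 18.2 FPKM in CNS and at 0.358 and 0.241 FPKM in dLN (3.93 ± 0.11). Both showed CNS replicates close together and no overlap between tissues. Ifi27l2a was the most abundant of the 43 genes in both tissues, at 453 and 555 FPKM in CNS and at 199.8 and 176 FPKM in dLN (1.41 ± 0.13), and was the only one above 100 FPKM in dLN. Its neighbour Ifi27 was at 67.8 and 76.3 FPKM in CNS and at 19.7 and 17.0 FPKM in dLN (1.92 ± 0.12). Both encode small mitochondrial membrane proteins. Ifi35, a leucine zipper protein of the interferon response, was also well expressed in dLN, at 25.2 and 24.1 FPKM, beside 48.1 and 46.8 FPKM in CNS (0.92 ± 0.08).

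Transcript values, which are the authors' estimate of how reads divide among overlapping forms, are described without a test. Adar has a short constitutive form (930 coding residues, transcript NM_001038587) that starts upstream, at 89715022 on chromosome 3, and long forms that start at 89730718. In the gene's textbook account the long form is the interferon-inducible one. The form of 930 residues was at 0.891 and 1.37 FPKM in CNS and at 4.87 and 7.03 FPKM in dLN. The form of 1178 residues (NM_001146296) was at 9.20 and 6.18 FPKM in CNS and at 0.00453 and 0.00836 FPKM in dLN. The form of 1152 residues (NM_019655) was at 15.5 and 19.1 FPKM in CNS and at 15.2 and 12.8 FPKM in dLN. The gene's small difference therefore combined a lower upstream form, a higher longest form, and a main form that was slightly higher in CNS. For Isg20, the transcript NM_020583 was at 83.5 and 97.6 FPKM in CNS and at 6.24 and 5.39 FPKM in dLN, and NM_001291221 at 33.6 and 22.0 against 2.55 and 3.84 FPKM. The form with the most downstream start, NM_001113527, was at 4.66 and 1.37 FPKM in CNS and at 3.14 and 4.35 FPKM in dLN, so its values overlapped.

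For Zbp1, a form of 411 residues (NM_021394) and a short form of 187 residues (NM_001139519) were both read. The long form was at 71.3 and 71.7 FPKM in CNS and at 3.38 and 2.71 FPKM in dLN. The short form was at 102 and 107 FPKM in CNS and at 7.83 and 5.91 FPKM in dLN, and it held 58.8% and 60.0% of the gene's FPKM in CNS and 69.9% and 68.5% in dLN. For Ifitm1, whose transcripts both encode 106 residues, NM_001112715 was at 246 and 249 FPKM in CNS and at 5.37 and 1.22 FPKM in dLN, and NM_026820 at 104 and 115 against 7.05 and 2.13 FPKM. The form that led in CNS, with 70.3% and 68.4% of the gene, was the lesser in dLN, with 43.2% and 36.4%. Of Ifih1, the main form of 1025 residues (NM_027835) held between 96.0% and 96.8% of the gene's FPKM in each library, so the difference lay in that form. Xaf1 was read mainly as NM_001037713 (16.7 and 15.7 FPKM in CNS), with NM_001291153 at 2.69 and 2.43 FPKM. Trim30d divided into NM_199146 (3.70 and 4.55 FPKM in CNS, against 0.816 and 0.812 FPKM in dLN) and NM_001167828 (2.99 and 2.48 against 0.429 and 0.369 FPKM). Ifi27 had transcripts of several lengths of which NM_194067 (27.2 and 32.2 against 12.5 and 9.34 FPKM) and NM_026790 (34.8 and 33.2 against 6.33 and 6.23 FPKM) held most. Ifi27l2a was read almost wholly as NM_029803, and Mx1 as NM_010846 (7.02 and 6.09 FPKM in CNS) and NR_003520 (3.93 and 2.97 FPKM).

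**Figure D4:**
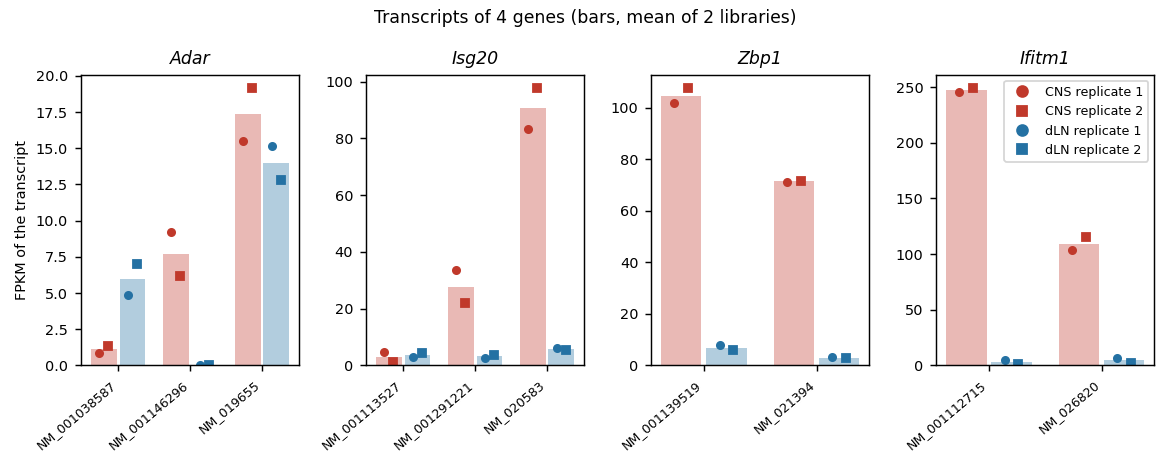
FPKM of the main transcripts of Adar, Isg20, Zbp1 and Ifitm1; points are the 4 libraries (circles replicate 1, squares replicate 2, red CNS, blue dLN) and bars, starting at 0, are the mean of the 2 libraries of a tissue. In Adar the leftmost transcript, the form of 930 residues, is higher in dLN and the middle one, the form of 1178 residues, is read in CNS alone at this scale, while every other form except one of Isg20 is higher in CNS.

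The genes of the pathway that feeds these targets were taken from lists of interferon ligands, receptors, transducers, feedback genes, sensors and relatives. Of 20 ligand genes, 18 were held and 12 were at 0 in all 4 libraries. Ifnb1 (0.4004 FPKM), Ifna1 (0.245 FPKM) and Ifna4 (0.205 FPKM), which encode type I interferons, and Ifnl2 (0.119 FPKM), a type III interferon, were read in CNS replicate 2 alone, and Ifne in dLN alone (0.113 and 0.0944 FPKM). Ifng, the type II interferon of T cells, was the only ligand tested, at 469 and 693 FPKM in CNS and at 324 and 138 FPKM in dLN (log2 ratio 1.43 ± 0.44, adjusted p = 0.0343 in limma). This call did not hold without CNS replicate 1 (adjusted p = 0.116), CNS replicate 2 (adjusted p = 0.218) or dLN replicate 2 (0.81, adjusted p = 0.0686), nor without the filter on low genes (adjusted p = 0.0986). Transcripts of type I interferon were thus scarce in both tissues, while Ifng was abundant in both.

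Of 6 receptor genes, 5 were tested and 4 were higher in CNS, beside 37.8% of all tested genes. The type I receptor genes differed modestly, with Ifnar1 at 9.44 and 10.2 FPKM in CNS, against 5.06 and 4.01 FPKM in dLN (0.97 ± 0.13), and Ifnar2 at 24.6 and 24.5 against 15.0 and 13.6 FPKM (0.74 ± 0.09). Ifngr1, the ligand-binding chain of the interferon-gamma receptor, was at 497 and 471 FPKM in CNS and at 14.7 and 11.0 FPKM in dLN (5.14 ± 0.15). Il10rb, shared by the interferon-lambda receptor, was at 31.4 and 27.7 against 7.10 and 6.69 FPKM (1.95 ± 0.10). Ifngr2, the signalling chain for interferon-gamma, did not pass the test (1.32 and 3.14 against 3.41 and 2.83 FPKM, -0.41 ± 0.30, adjusted p = 0.264 in limma). Its CNS replicates differed, with log2 ratios of -0.83 (adjusted p = 0.0230) without CNS replicate 2 and 0.01 (adjusted p = 0.947) without CNS replicate 1. Ifnlr1 was listed at 0 in all libraries. The receptor genes thus ranged from a small difference in the type I chains to one of 5.14 on the log2 scale in Ifngr1.

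Of 5 transducers, 3 were higher, 1 was lower and 1 did not pass, so that 4 of 5 were called beside 74.9% of all tested genes. Irf9, which brings STAT factors to the ISRE, was at 53.3 and 46.9 FPKM in CNS against 13.5 and 11.2 FPKM (1.94 ± 0.13). Irf9 and its partner Stat2 were thus both higher in CNS. Of the receptor kinases, Jak1 was at 176 and 156 against 53.9 and 49.96 FPKM (1.66 ± 0.10) and Tyk2 at 16.7 and 18.3 against 9.17 and 7.27 FPKM (1.01 ± 0.13). Jak2, which serves the interferon-gamma receptor and many cytokine receptors, was lower in CNS, at 29.4 and 31.6 against 191 and 214 FPKM (-2.69 ± 0.10). Stat3 was at 71.9 and 77.0 against 62.4 and 64.5 FPKM (0.23 ± 0.08, adjusted p = 0.0559 in limma), and passed as higher with every library at the same upper quartile (0.36, adjusted p = 0.0119) or without CNS replicate 1 (adjusted p = 0.0460).

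Of the 7 feedback genes, 3 were higher, 3 were lower and 1 did not pass, near the 37.8% higher and 37.2% lower over all tested genes. The suppressors of cytokine signalling Socs2 (2.16 ± 0.18) and Socs3 (2.39 ± 0.27) and the phosphatase Ptpn6 (1.72 ± 0.21) were higher in CNS. Socs1, the suppressor most used by interferon signalling, was lower, at 45.7 and 54.1 against 66.0 and 64.6 FPKM (-0.39 ± 0.11, adjusted p = 0.0247 in limma), as were the phosphatase Ptpn11 (-0.33 ± 0.09) and the STAT inhibitor Pias1 (-0.36 ± 0.11). The 3 lower calls were small and were lost with every library at the same upper quartile (adjusted p = 0.0700 for Socs1, 0.0831 for Ptpn11 and 0.134 for Pias1), and for each of them also without dLN replicate 2 (adjusted p = 0.0924, 0.0912 and 0.183). Without dLN replicate 1 the calls of Socs1 (adjusted p = 0.109) and Ptpn11 (0.0956) were lost, without CNS replicate 1 those of Ptpn11 (0.0587) and Pias1 (0.1002), and without CNS replicate 2 that of Pias1 (0.171). Ptpn2, a phosphatase of Jak1, did not pass (-0.29 ± 0.10, adjusted p = 0.0529 in limma), but did with every library at the same sum (-0.49, adjusted p = 0.0151) or without CNS replicate 1 (adjusted p = 0.0321).

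**Figure D5:**
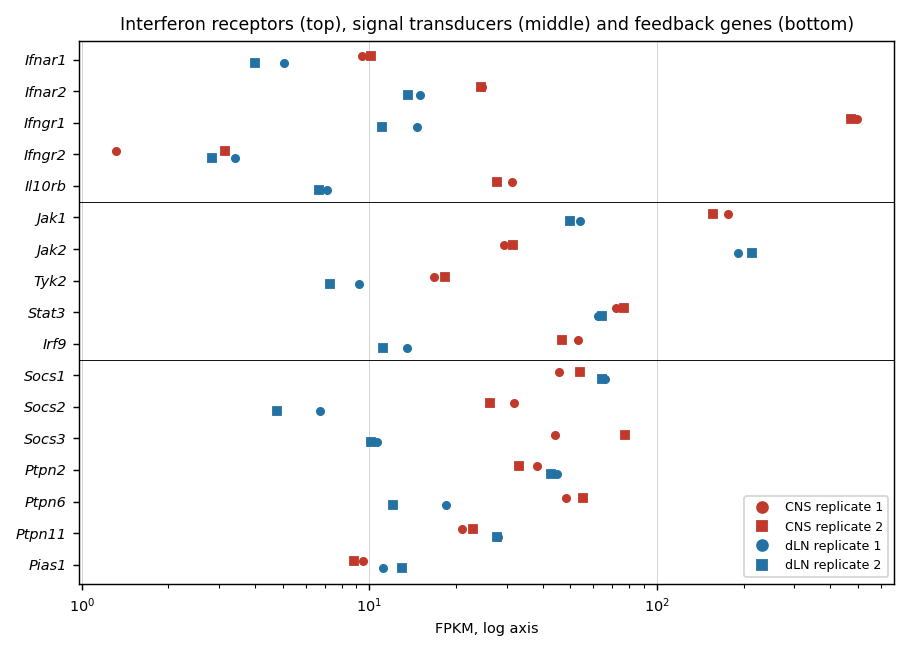
FPKM (log axis) of interferon receptors, signal transducers and feedback genes in each library; circles are replicate 1 and squares replicate 2, red CNS and blue dLN. Ifngr1 has the widest gap with CNS to the right, Jak2 the widest with dLN to the right, and the feedback genes lie on both sides.

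Of 13 other sensors and adaptors tested, 6 were higher, 4 were lower and 3 did not pass, a split near the 37.8% higher and 37.2% lower over all tested genes. Irf7, the factor that amplifies type I interferon transcription and is itself an interferon target, was at 56.1 and 66.4 FPKM in CNS and at 1.02 and 1.40 FPKM in dLN (4.82 ± 0.14). Tmem173 (STING) was at 60.8 and 64.2 against 16.2 and 11.3 FPKM (2.12 ± 0.18), Ikbke, a kinase of Irf3 and Irf7, had a log2 ratio of 1.52 ± 0.12, and Aim2, a sensor of cytosolic DNA, one of 1.51 ± 0.11. The lower genes were the adaptor Traf3 (-1.07 ± 0.09), the factor Irf3 (-0.66 ± 0.09), the kinase Tbk1 (-0.51 ± 0.10) and the DNA sensor Mb21d1 (-0.44 ± 0.11), whose call was lost without dLN replicate 1 (adjusted p = 0.0766) or dLN replicate 2 (adjusted p = 0.0710). Mavs, the adaptor of Ddx58 and Ifih1, did not pass (9.61 and 9.23 against 9.15 and 8.78 FPKM, 0.06 ± 0.09, adjusted p = 0.533 in limma), and the receptors Tlr3, Tlr7 and Tlr9 were under the minimum for testing. Irf7 had the largest log2 ratio of this list, and Irf3, its constitutive relative, was on the other side.

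Relatives of the antiviral genes in the same families, not all of them interferon targets, gave 20 higher, 6 lower and 5 that did not pass among 31 tested, beside 37.8% higher and 37.2% lower over all tested genes, with a median log2 ratio of 0.75, beside 2.97 for the antiviral genes and 0.05 over all tested genes. The highest were the ubiquitin ligases Dtx4 (3.07 ± 0.11) and Herc3 (2.57 ± 0.12), the nuclear body protein Sp140 (2.65 ± 0.13) and the ADP-ribosylating Parp10 (2.22 ± 0.14). The lowest were Adarb2 (-1.63 ± 0.13), Adarb1 (-1.53 ± 0.15), Eif2ak4 (-1.38 ± 0.10) and Isg20l2 (-1.34 ± 0.08). Several families therefore held members on both sides. Adar was slightly higher while its editing relatives Adarb1 (0.388 and 0.529 against 3.50 and 2.93 FPKM) and Adarb2 (0.396 and 0.296 against 3.30 and 3.06 FPKM) were lower in CNS. Eif2ak2 was higher while the nutrient sensor Eif2ak4 was lower (1.80 and 1.93 against 6.42 and 6.50 FPKM), and Isg20 was higher while Isg20l2, a nucleolar exonuclease, was lower (18.6 and 18.5 against 48.5 and 48.2 FPKM).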

How the data were processed

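Effector CD4 cells of CNS and dLN were sequenced in 2 libraries each. The authors trimmed the reads, mapped them to mouse build mm10 and deposited FPKM for 33819 RefSeq transcripts, with a separate table for each tissue. The aligner and the program that computed FPKM are not given in the sources used here. Each library was scaled by its own total, so tissues were compared across separately deposited tables. Both library names share 1 header cell of the CNS table, and the columns were read in the order of the names. From the deposited FPKM, values were summed per gene symbol (565 transcripts without a symbol were left out) and tables were joined by transcript. The 10634 genes whose mean reached 1 FPKM in CNS or dLN entered a two-sided limma test (version 3.58.1 in R 4.3.3, lmFit and eBayes with trend) of log2(FPKM + 1). Tissue was its single factor, p-values were adjusted by Benjamini-Hochberg (threshold 0.05), and the script was first tested on simulated data. Other steps used scipy 1.17.1, pandas 2.3.3, numpy 2.4.6 and matplotlib 3.10.9 under Python 3.11.15. Fragments were estimated from the steps between low values (18.6 M to 22.1 M per library), and intervals and floors (3 fragments) cover counting error only. Shared 50-base stretches and exon overlaps came from GENCODE M21, and promoter windows from RefSeq (GRCm38.p6).

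The antiviral genes, pathway lists and markers were chosen with earlier results of these data known. All 43 genes were to be accounted for by role, with the value in every library for those that averaged 10 FPKM or more in a tissue, not passing the test, or lower in CNS. Of the pathway lists, every ligand, receptor, transducer and feedback gene that passed was to be named, and of sensors and relatives the 4 with the largest change in each direction. Ifitm6, Mavs and genes that did not pass were added after their values were seen. Transcripts were given for genes with 2 or more of at least 1 FPKM. Alternatives covered the pseudocount, filter, scaling, highest transcript, eBayes without trend, a replicate block and leaving out each library. Some genes of the pathway are not reported here.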

Additional observations from a re-analysis of the deposited data

How the results depend on the processing

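Of 567 comparisons of an antiviral gene with an alternative setting, 559 kept the direction and the call, 8 (all of Adar or Trim25, with the values given beside those genes) kept the direction and lost the call, and 0 reversed. Of 51 pathway genes called, 41 kept the call in every setting that could test them, and 0 of 707 comparisons reversed. Requiring a mean of 1 FPKM in both tissues left 24 genes to test, which all passed, 22 of them higher, with a median log2 ratio of 2.61. The median was 3.78 with a pseudocount of 0.1, 3.15 with 0.5 and 2.82 with every library at the same sum of FPKM, where the log2 scale itself sets the first pair. The same sum moved the median of all tested genes by -0.17 and left 43.1% of all calls higher in CNS, and the same upper quartile moved it by 0.12 and left 55.6%, beside 50.4% in the reported fit. Leaving out each library in turn gave 40 to 42 called genes, medians of 2.87 to 3.05, and 39 to 40 higher genes, with the lone library of a tissue assumed to vary like the others. A fit with a replicate block called 7828 genes, among them 40 antiviral genes higher and 2 lower, with the median at 2.97. Of the pathway genes the replicate block lost Pias1 (adjusted p = 0.0547), Myd88 (0.0544) and Parp6 (0.0569) and gained Ptpn2 (0.0450). By the sex-linked transcripts the tissues did not share animals, so the replicate numbers were not taken to pair libraries. Replicate differences in CNS and dLN correlated at 0.0933 across genes. Without a filter 16782 genes were tested and 8477 called, and of the 43 antiviral genes only Ifi44 did not pass. A filter on the mean over all 4 libraries, chosen after seeing the data, tested 39, of which 37 were higher and 2 lower. With 2 libraries per tissue the spread was estimated mainly from other genes, and genes with a few dLN fragments (Oas2, Oasl1, Ifi44, Rtp4, Cmpk2, Rsad2) have ratios of low precision.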
